A study of Rattus norvegicus with 12 samples.

Results

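The dual-specificity MAP kinase phosphatases (MKPs) described here were 10 genes, *Dusp1*, *Dusp2*, *Dusp4*, *Dusp5*, *Dusp6*, *Dusp7*, *Dusp8*, *Dusp10*, *Dusp14* and *Dusp16*, taken by symbol from the 17337 genes of the raw count table. All 10 were present. They were listed by symbol and not by a measured value, but the list was chosen with earlier results of these data known. Their transcripts were counted by RNA sequencing of the whole striatum in 12 adult male Sprague–Dawley rats, labelled wild type, that had taken methamphetamine (MA) by lever pressing for 16 days. The MA12 rats (n = 4) were killed 12 h and the MA24 rats (n = 4) 24 h after the last session, and only rats with stable lever pressing entered these groups. The rats lived in a light-dark cycle and the hour of killing is not given in the sources used here. Time since the last session and time of day therefore cannot be told apart. The labels call the third group non-addicted after the same 16 days of MA (n = 4). The sources used here give neither the criterion for that name nor the time since the last session. By the labels all 12 rats had received MA, and none is labelled a drug-free control. The paper names saline (S) and M groups but no non-addicted group, and how that group relates to them is not stated. No rats labelled S or M were analysed here.

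MKPs remove phosphate from both the threonine and the tyrosine of the activation loop of ERK, JNK and p38, and so end the signal that MAP kinase kinases start. *Dusp1*, *Dusp2*, *Dusp4* and *Dusp5* encode nuclear enzymes whose genes are switched on by the same signals that they end. *Dusp6* and *Dusp7* encode cytoplasmic enzymes that prefer ERK, *Dusp8*, *Dusp10* and *Dusp16* encode enzymes that prefer JNK and p38, and *Dusp14* encodes a small enzyme without the kinase-docking domain of the others. In striatal projection neurons, dopamine and glutamate receptors act on ERK, and psychostimulants raise ERK phosphorylation and the transcription of early genes such as *Fos*.

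The start sites of the inducible members differ in the sequence motifs through which early genes are known to be controlled, and 3 of them are shown for that contrast. RefSeq windows (build GRCr8, 250 bases before to 50 after the start site) were at hand for 9 of the 10 members, in 11 windows because *Dusp14* has 3. *Dusp4* had none. The 250 bases before the start site are printed 5′ to 3′ for *Dusp1* (chr10:17184603-17184852, + strand), *Dusp5* (chr1:262543524-262543773, + strand) and *Dusp6* (chr7:35979354-35979603, + strand). Capitals mark the cAMP-response half-site TGACG on either strand and, in *Dusp5*, also the CArG boxes, which are the core of the serum-response element.
Dusp1: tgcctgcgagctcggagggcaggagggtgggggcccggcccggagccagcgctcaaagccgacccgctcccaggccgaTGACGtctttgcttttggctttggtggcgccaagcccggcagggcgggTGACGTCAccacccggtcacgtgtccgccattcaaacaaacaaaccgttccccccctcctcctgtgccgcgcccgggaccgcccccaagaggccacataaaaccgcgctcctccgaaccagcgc
Dusp5: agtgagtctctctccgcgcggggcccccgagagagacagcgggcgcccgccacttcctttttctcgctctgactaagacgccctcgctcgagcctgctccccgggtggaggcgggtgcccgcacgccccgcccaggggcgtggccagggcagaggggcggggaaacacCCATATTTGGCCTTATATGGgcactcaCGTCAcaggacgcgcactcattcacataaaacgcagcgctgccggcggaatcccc
Dusp6: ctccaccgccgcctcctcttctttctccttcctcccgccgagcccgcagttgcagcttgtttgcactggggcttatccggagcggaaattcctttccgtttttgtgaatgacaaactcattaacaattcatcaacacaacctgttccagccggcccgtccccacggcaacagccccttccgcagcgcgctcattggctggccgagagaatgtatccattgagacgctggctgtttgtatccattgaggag

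The *Dusp1* window held the full cAMP-response element TGACGTCA, with its first base at -124 counted from -1 just before the start site. It also held half-sites at -172, -124 and -121, of which the last 2 lie inside the full element on opposite strands. In *Dusp5*, 2 CArG boxes lay side by side at -82 and -72, and a half-site on the other strand began at -55. The *Dusp6* window held none of the motifs searched, nor did those of *Dusp7*, *Dusp8* and *Dusp10*. Single half-sites lay at -9 in *Dusp2*, at -70 in *Dusp16* and at -77 in 1 window of *Dusp14*, which also held the AP-1 motif TGANTCA at -89. The E-box CACGTG lay at -107 in *Dusp1* and at -123 in *Dusp2*. Of all 33469 rat windows of this length, 1.83% held the full cAMP-response element, 21.2% the half-site, 1.64% a CArG box, 7.33% the AP-1 motif and 6.42% the E-box, on either strand. A match gives the letters of the window and does not show that a factor bound there.

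Total counts per library lay between 17908962 and 23850284, and mean counts of the members over the 12 rats ran from 81.9 (*Dusp2*) to 2778 (*Dusp8*), so each was well above the filter on low counts. Levels are given as CPM, each count relative to the library total, after trimmed-mean (TMM) scaling, or on the log2 scale after addition of a prior count of 2. They were not divided by transcript length and are compared between rats and not between genes. All 10 striatal projection neuron markers, among them *Drd1*, *Drd2* and *Penk*, were counted in every library, with sums of 14218.7 to 17823.8 CPM, whereas the 6 cortical excitatory markers summed to 11.4 to 22.1 CPM and *Neurod6* and *Neurod2* were among those at 0 in some libraries. Groups differed in markers of other cells, each listed gene being called by the test given below. In the non-addicted rats the mural cell genes *Abcc9* and *Acta2* and the endothelial gene *Kdr* were lower than in MA12, *Cldn5* and *Kdr* were lower than in MA24, and the ependymal genes *Foxj1* and *Rsph1* were higher than in MA24. The projection neuron gene *Pdyn* was lower in non-addicted than in MA12 rats, and the mural genes *Abcc9* and *Rgs5* and the thalamic gene *Prkcd* were lower in MA24 than in MA12. Several of these calls depended on the rats, the filter or the model used. *Abcc9*, *Rgs5* and *Prkcd* in MA24 vs. MA12 were not called among the rats numbered with an N alone (adjusted p of 0.191, 0.113 and 0.251) or with the N as a covariate (0.207, 0.156 and 0.23). The log2FC of *Prkcd* was then -0.43 and -0.44, in place of -0.94. *Pdyn* and *Acta2* in non-addicted vs. MA12 were not called with the covariate (adjusted p of 0.0963 and 0.0917) and were not called in 9 of 17 alternatives each. In non-addicted vs. MA24, *Cldn5* was not called in 7 of 15 alternatives and *Kdr*, *Foxj1* and *Rsph1* in 9 of 15 each. No astrocyte, oligodendrocyte, microglia or cortical marker passed in any comparison. A trailing N stands in the numbers of all 4 MA24 rats, of MA12 rats 4N and 7N and of 0 non-addicted rats, and its meaning is not given in the sources used here, so in non-addicted vs. MA24 the N and the group cannot be told apart. In bulk tissue, fewer cells of a type and less RNA per cell cannot be told apart.

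By SD between rats within groups the most variable member was *Dusp1*, the prototype of the nuclear inducible enzymes, which acts on p38, JNK and ERK. It stood at 42.4, 43.3, 48.7 and 82.2 CPM in MA12 rats 21, 31, 4N and 7N, and at 38.4, 52.5, 48.3 and 41.0 CPM in MA24 rats 9N, 14N, 15N and 16N. In non-addicted rats 9, 11, 12 and 13 it stood at 30.9, 62.2, 26.9 and 72.2 CPM. The highest rat thus had 3.06 times the lowest (3.82 times for *Dusp16* and 3.09 times for *Dusp4*), and the non-addicted group alone spanned both the 2 lowest rats and the second and the third highest. Group means were 5.71 ± 0.45, 5.49 ± 0.21 and 5.46 ± 0.71 log2 CPM in MA12, MA24 and non-addicted rats (SD, n = 4 each). No difference between the means exceeded this spread, with log2FC of -0.26 (SE 0.17, edgeR adjusted p = 0.354) for MA24 vs. MA12, -0.18 (SE 0.26, adjusted p = 0.833) for non-addicted vs. MA12 and 0.086 (SE 0.22, adjusted p = 0.862) for non-addicted vs. MA24. The first of these was 0.014 without MA12 rat 7N. Among the rats numbered with an N alone it was -0.53 (edgeR unadjusted p = 0.00258, adjusted p = 0.103). With the N as a covariate it was -0.54 (unadjusted p = 0.00451, adjusted p = 0.139), so it was called in neither. The MA12 rats with an N were only 4N and 7N, and 7N had the highest *Dusp1* of all rats.

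*Dusp4*, a nuclear enzyme that acts on ERK and JNK, showed the lowest levels in the non-addicted rats. Their values were 2.40, 4.93, 3.32 and 2.03 CPM in rats 9, 11, 12 and 13, against 5.55, 4.93, 4.09 and 6.27 CPM in MA12 rats 21, 31, 4N and 7N. The MA24 rats 9N, 14N, 15N and 16N had 4.82, 4.29, 4.11 and 5.86 CPM. Of the non-addicted rats, 3 lay below all 8 others and rat 11 lay among them. The log2FC was -0.72 (SE 0.27, 95% interval -1.29 to -0.15, edgeR unadjusted p = 0.0162, adjusted p = 0.279) for non-addicted vs. MA12. It was -0.59 (SE 0.27, 95% interval -1.16 to -0.019, unadjusted p = 0.0434, adjusted p = 0.271) for non-addicted vs. MA24. Neither passed the threshold over all genes. These counts were low (39 to 132 per library), and the comparisons share the non-addicted rats.

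The other nuclear members did not differ between groups beyond their spread. *Dusp5*, which is specific to ERK, lay at 4.33 to 8.19 CPM in MA12, 5.65 to 7.49 in MA24 and 4.48 to 9.67 in non-addicted rats, with its highest value in non-addicted rat 11 and its lowest in MA12 rat 21. Its 3 log2FC lay between -0.019 and 0.16. *Dusp2*, known best from immune cells, was counted 45 to 116 times per library and lay at 3.22 to 5.53, 2.38 to 4.99 and 3.49 to 4.17 CPM in the same order, with log2FC between -0.080 and -0.036. Its SD between rats was 0.51 log2 CPM in MA24 and 0.12 in non-addicted rats.

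**Figure D1:**
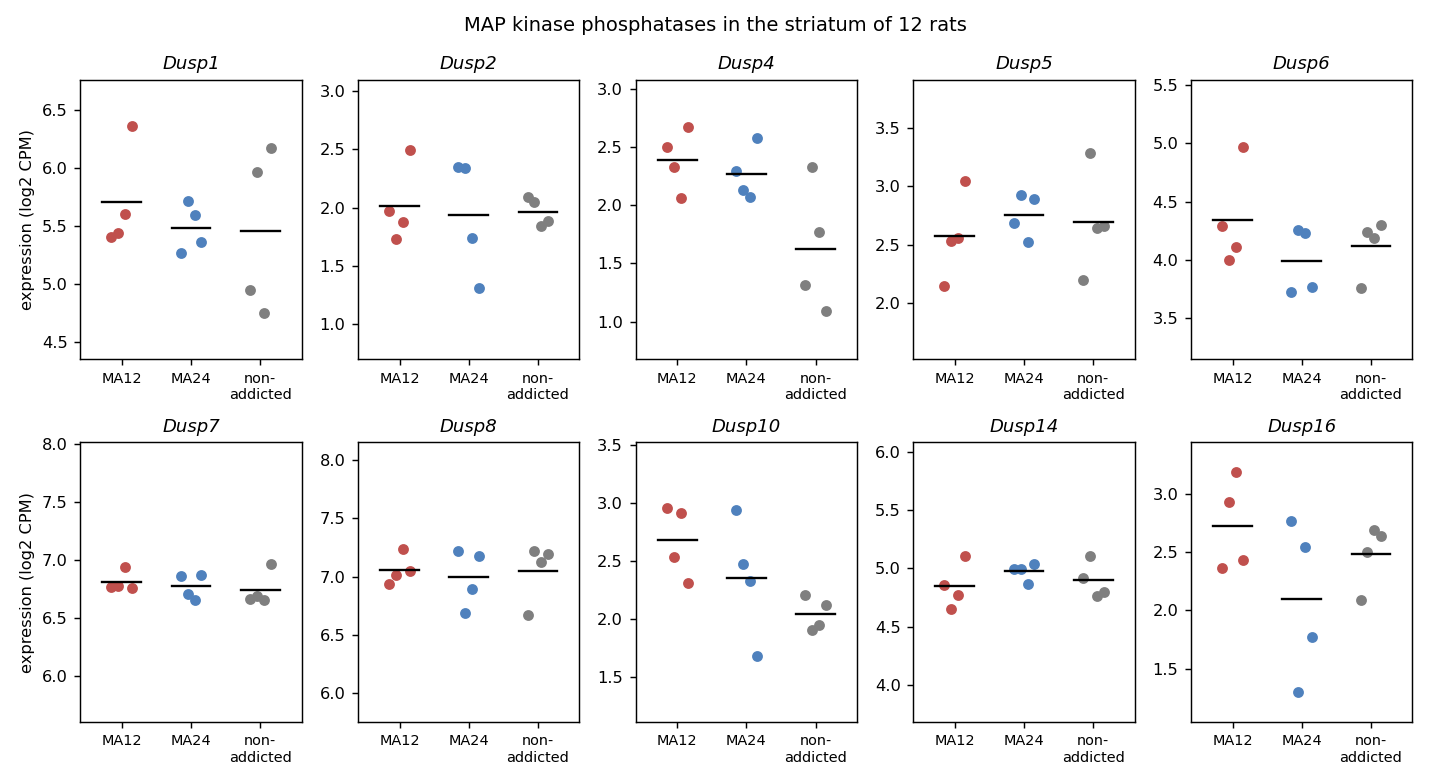
Expression of the 10 MKP genes in log2 CPM, with 1 point per rat, a line at the mean of each group (n = 4) and the same span of the vertical axis in every panel. *Dusp1* in the non-addicted rats falls into 2 high and 2 low rats, *Dusp10* of the non-addicted rats lies below every MA12 rat, and *Dusp7* and *Dusp14* vary little.

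*Dusp6*, the ERK-specific cytoplasmic phosphatase that ERK signalling itself induces, stood at 19.4, 15.8, 17.2 and 31.2 CPM in MA12 rats 21, 31, 4N and 7N. In MA24 rats 9N, 14N, 15N and 16N it stood at 13.1, 19.0, 18.7 and 13.5 CPM, and in non-addicted rats 9, 11, 12 and 13 at 13.4, 18.7, 18.1 and 19.6 CPM. MA12 rat 7N was the highest of the 12, and the remaining 11 rats overlapped across the groups. The log2FC was -0.38 (SE 0.19, 95% interval -0.78 to 0.019, edgeR adjusted p = 0.234) for MA24 vs. MA12, -0.26 (SE 0.18, adjusted p = 0.599) for non-addicted vs. MA12 and 0.12 (SE 0.16, adjusted p = 0.711) for non-addicted vs. MA24. For MA24 vs. MA12 the log2FC of *Dusp6* was -0.12 without MA12 rat 7N. It was -0.58 among the rats numbered with an N alone (edgeR unadjusted p = 0.00652, adjusted p = 0.148), where MA12 held only rats 4N and 7N. With the N as a covariate *Dusp6* had -0.59 (unadjusted p = 0.011, adjusted p = 0.191), and none of these values was called. Its cytoplasmic relative *Dusp7* was the steadiest member, at 101 to 125 CPM over all 12 rats. In the comparison of MA24 with MA12, *Dusp7* was among the 15% of genes with the lowest variance, which were not tested, and fitted with them it had a log2FC of -0.033 (95% interval -0.20 to 0.13).

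Of the 10 members, 1 had groups that did not overlap, and only in non-addicted vs. MA12. This was *Dusp10*, a JNK and p38 phosphatase. In that comparison 7.01% of all genes tested did not overlap, so 1 of 10 members is near the background share. *Dusp10* stood at 7.65, 5.68, 7.43 and 4.86 CPM in MA12 rats 21, 31, 4N and 7N and at 4.54, 3.65, 3.77 and 4.27 CPM in non-addicted rats 9, 11, 12 and 13. The MA24 rats 9N, 14N, 15N and 16N spread across both, with 7.57, 5.47, 4.93 and 3.12 CPM. The lowest MA12 rat, 7N, and the highest non-addicted rat, 9, were close, with 86 and 87 counts in libraries of 17908962 and 19043710. The log2FC for non-addicted vs. MA12 was -0.67 (SE 0.22, 95% interval -1.12 to -0.21, edgeR unadjusted p = 0.00614, adjusted p = 0.185). In non-addicted vs. MA24 it was -0.39 (SE 0.25, adjusted p = 0.418), and in MA24 vs. MA12 -0.28 (SE 0.25, adjusted p = 0.519). These values moved with single MA24 rats. Non-addicted vs. MA24 was -0.15 without rat 9N and -0.57 without rat 16N, and MA24 vs. MA12 was -0.51 without rat 9N and -0.096 without rat 16N, all short of the threshold.

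Markers of several other cell types also differed between the non-addicted rats and the MA12 or MA24 rats. *Dusp4* had an edgeR unadjusted p below 0.05 in both of these comparisons, and *Dusp10* only in non-addicted vs. MA12. The 6 mural cell markers summed to 76.7 to 108.2 CPM in non-addicted, 114.0 to 200.8 in MA12 and 103.7 to 130.7 in MA24 rats, and all 6 were below MA12 at an unadjusted p under 0.05. The 6 endothelial markers in the table summed to 296.1 to 407.9, 402.0 to 511.4 and 465.7 to 515.8 CPM in the same order, with 4 of 6 and 6 of 6 below MA12 and MA24 at that p. The 6 oligodendrocyte markers summed to 11993.3 to 16876.4, 12611.2 to 21132.7 and 17352.5 to 20703.6 CPM in the same order, and all 6 were below MA24 at that p (median log2FC -0.36). The 7 ependymal and choroid plexus markers summed to 34.6 to 87.4, 20.5 to 62.5 and 22.7 to 34.9 CPM, with 5 of 6 tested above MA24 at that p (median log2FC 1.14). Of them *Otx2* and *Ttr* were at 0 in some libraries, whereas no vascular marker was. Of all genes tested, 12.3% (vs. MA12) and 17.5% (vs. MA24) reached that p. In the same 2 comparisons 2 of 6 and 1 of 6 astrocyte markers did, and 1 of 6 and 0 of 6 microglia markers. Of the projection neuron markers 1 of 9 and 3 of 9 did. Only 1 of 6 oligodendrocyte and 3 of 6 ependymal and choroid plexus markers reached it vs. MA12. The part of any of these cell types in the values of *Dusp4* and *Dusp10* was not tested.

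*Dusp16*, a JNK phosphatase, varied almost as much as *Dusp1*. It stood at 5.05, 7.52, 9.02 and 5.31 CPM in MA12 rats 21, 31, 4N and 7N, at 6.71, 2.36, 5.76 and 3.33 CPM in MA24 rats 9N, 14N, 15N and 16N, and at 4.17, 5.58, 6.36 and 6.14 CPM in non-addicted rats 9, 11, 12 and 13. MA24 rats 14N and 16N were the lowest of the 12, while 9N and 15N lay within the MA12 range. The log2FC for MA24 vs. MA12 was -0.56 (SE 0.29, 95% interval -1.16 to 0.038, edgeR adjusted p = 0.242). It was -0.35 without MA24 rat 14N and -0.82 without MA24 rat 9N (edgeR unadjusted p = 0.0127, adjusted p = 0.0962), and was called in neither. *Dusp8*, a brain-enriched phosphatase of JNK and p38, lay at 102 to 151 CPM, and its 3 log2FC lay between -0.054 and 0.052. *Dusp14*, the small enzyme without a docking domain, lay at 25.1 to 34.4 CPM with log2FC between -0.077 and 0.12.

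A gene was called differentially expressed (a DEG) at a Benjamini-Hochberg adjusted p below 0.05 in edgeR's quasi-likelihood test and a fold change of at least 1.5. By this rule 0 of 9 members tested were DEGs in MA24 vs. MA12, where 2.45% of 10754 genes were. In non-addicted vs. MA12, 0 of 10 were DEGs beside 0.251% of 10758 genes, and in non-addicted vs. MA24, 0 of 10 beside 0.456% of 10744 genes. DESeq2 and edgeR's likelihood ratio test also called 0 members in each comparison. At an unadjusted p below 0.05 there were 0, 2 (*Dusp4* and *Dusp10*) and 1 (*Dusp4*) members in the same order, where 23.6%, 12.3% and 17.5% of all genes tested reached that p. In MA24 vs. MA12 that number was 3 among the rats numbered with an N alone (*Dusp1*, *Dusp6* and *Dusp16*) and 2 with the N as a covariate (*Dusp1* and *Dusp6*), in place of 0. The share of all genes at that p was not taken for these fits, so their counts have no background beside them. The MA12 rats with an N were only 4N and 7N. Groups did not overlap for 0, 1 (*Dusp10*) and 0 members, where 15.6%, 7.01% and 9.96% of genes did not. In the fits with all rats, counts of 0 to 2 among 9 or 10 members are too small to judge a departure from the background shares.

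Most fitted differences were small and below 0, as 7 of 9, 8 of 10 and 6 of 10 members had a negative log2FC in the 3 comparisons. Of all genes tested, 51.7%, 52.3% and 49.7% did. The median log2FC of the members was -0.13, -0.13 and -0.026, beside -0.016, -0.012 and 0.0031 over all genes tested. Each pair of comparisons shares a group of rats, so these counts are not independent of each other.

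**Figure D2:**
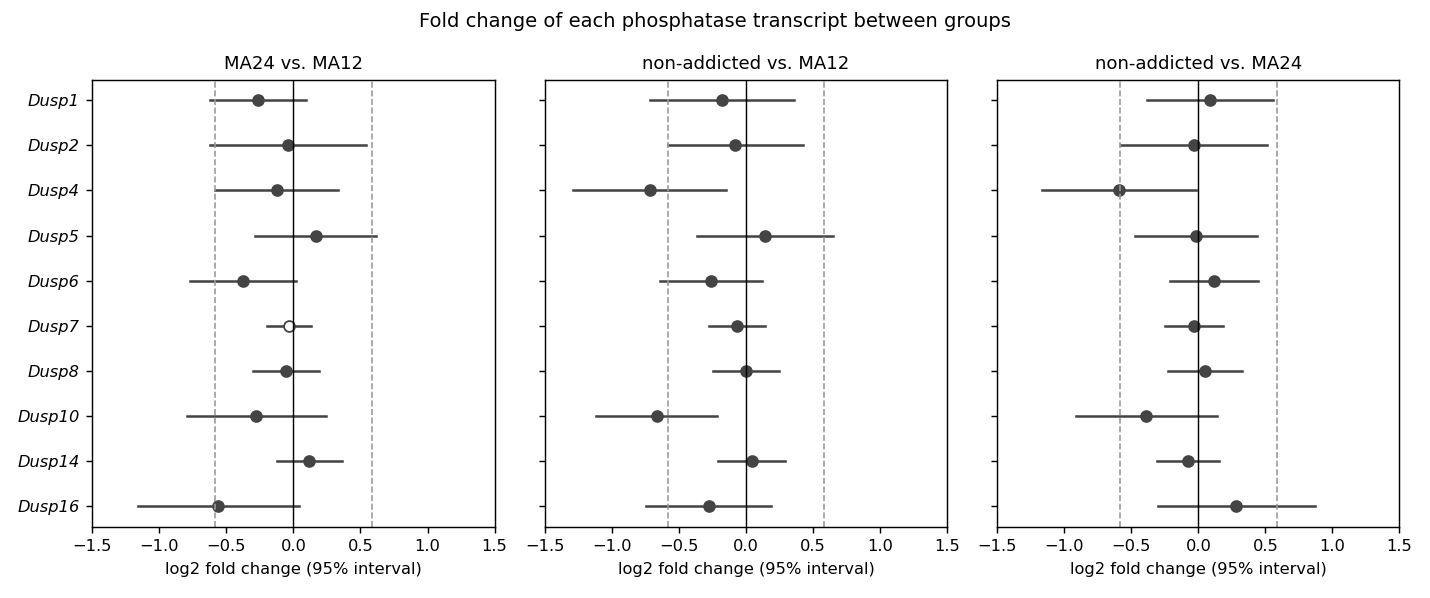
Log2FC of each MKP gene in the 3 comparisons, with the 95% interval of edgeR's quasi-likelihood fit as a line, dashed lines at a fold change of 1.5 in either direction and an open circle where the gene was fitted without the variance filter. The intervals of *Dusp4* (both comparisons with non-addicted rats) and *Dusp10* (non-addicted vs. MA12) exclude 0, and those of *Dusp7*, *Dusp8* and *Dusp14* stay inside the dashed lines throughout.

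How large a difference could have been missed varied between members. For *Dusp7*, *Dusp8* and *Dusp14* the 95% intervals lay within 1.5-fold in all 3 comparisons, with the outermost bounds at 0.826 and 1.13 (*Dusp7*), 0.813 and 1.26 (*Dusp8*) and 0.807 and 1.28 (*Dusp14*) as ratios of the groups. For *Dusp4*, *Dusp10* and *Dusp16* none of the 3 intervals did, and *Dusp16* ratios from 0.446 to 1.82 remained inside them. Over all 30 intervals, 14 lay within 1.5-fold and 3 excluded a ratio of 1.

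Rats of the same group differed more in most MKP genes than in the typical gene. The SD between rats within groups was above the median of 12649 genes (0.177 log2 CPM) for 8 of the 10 members. It was 0.50 for *Dusp1*, above 86.3% of all genes, and 0.48 for *Dusp16*, above 85.6%. For *Dusp1* counting error alone would give 0.0454, far less than the spread observed. For *Dusp2*, with an SD of 0.36, counting error would give 0.159, a larger share. The SD of *Dusp4*, *Dusp5*, *Dusp6* and *Dusp10* was 0.37, 0.35, 0.33 and 0.36. Genes with few counts have larger SDs, and the percentiles were not adjusted for this. *Dusp8*, *Dusp14* and *Dusp7* had 0.22, 0.15 and 0.12, the last above only 24.0% of genes. MA12 rat 7N, the smallest library, was the highest of the 12 rats in 4 members, *Dusp1*, *Dusp2*, *Dusp4* and *Dusp6*, and MA24 rat 16N was the lowest in 2, *Dusp2* and *Dusp10*.

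**Figure D3:**
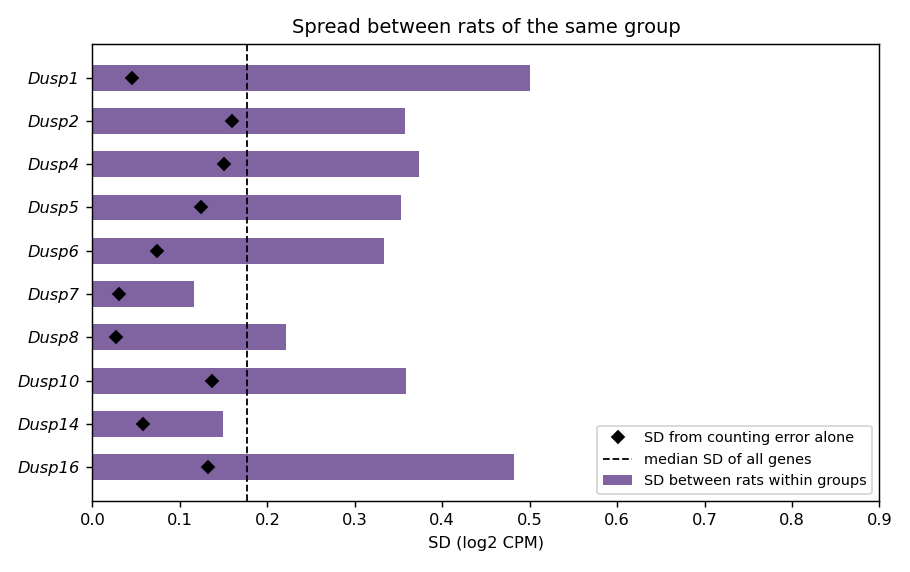
SD of log2 CPM between rats of the same group for each MKP gene (bars, pooled over the 3 groups of 4 rats), with the SD that counting error alone gives at its mean count (diamonds) and the median SD of all 12649 genes (dashed line). *Dusp1* (0.50) and *Dusp16* (0.48) spread most, and *Dusp7* (0.12) and *Dusp14* (0.15) lie below the median gene.

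The spread of *Dusp1* and *Dusp6* went with that of activity-induced early genes. An early gene score was made for each rat as the mean log2 CPM of 14 genes (*Fos*, *Fosb*, *Fosl2*, *Junb*, *Egr1*, *Egr2*, *Egr3*, *Egr4*, *Arc*, *Nr4a1*, *Nr4a3*, *Npas4*, *Ier2* and *Btg2*), each minus its group mean. The genes of the score encode mostly transcription factors that neurons induce within minutes of firing, and none is an MKP. In MA24 vs. MA12, non-addicted vs. MA12 and non-addicted vs. MA24, 0 of the 14 were DEGs, beside 2.45%, 0.251% and 0.456% of all genes. At an edgeR unadjusted p below 0.05 there were 1, 3 and 4, beside 23.6%, 12.3% and 17.5%. *Nr4a3* had a log2FC of 1.34 and 1.52 in the 2 non-addicted comparisons, in which 6 and 10 of the 14 were above 0. The score was highest in MA12 rat 7N (0.61) and in non-addicted rats 11 (0.56) and 13 (0.47), and lowest in non-addicted rats 9 (-0.63) and 12 (-0.40). These are the same non-addicted rats that were high and low in *Dusp1*.

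Each of the 10 members was related to the score over the 12 rats, after subtraction of group means, with a two-sided exact permutation test within groups (13824 arrangements). *Dusp6* followed the score with Pearson's r = 0.80 (p = 1.45e-04, adjusted p = 0.00145) and Spearman's rho = 0.83 (p = 2.17e-04, adjusted p = 0.00217). *Dusp1* followed it with r = 0.93 (p = 0.00666, adjusted p = 0.0333) and rho = 0.92 (p = 0.00767, adjusted p = 0.0383). Without the 2 rats farthest from the median of the member's own level, r was 0.69 for *Dusp6* and 0.89 for *Dusp1*. Without MA12 rat 7N, *Dusp6* kept r = 0.73 (exact permutation p = 5.79e-04, adjusted p = 0.00579). *Dusp1* then had r = 0.90, little changed, but its exact permutation p was 0.0535 and its adjusted p 0.268, so it no longer passed. The test without a rat also has fewer arrangements. With MA12 also split by the N, and means and arrangements taken within the 4 resulting sets of rats (2304 arrangements), *Dusp6* had r = 0.78 (exact permutation p = 8.68e-04, adjusted p = 0.00868). *Dusp1* had r = 0.92 there (exact permutation p = 0.0269, adjusted p = 0.135) and no longer passed. *Dusp5* had r = 0.71 (p = 0.037, adjusted p = 0.123) and passed no threshold after adjustment. The other 7 members had r between -0.34 (*Dusp10*) and 0.58 (*Dusp14*), and adjusted p of at least 0.29. The share of all genes related to the score was not taken, so the 2 of 10 members that passed have no background beside them. Libraries of 1 rat share tissue handling and library preparation, and all 12 carry the same batch date in the labels, so no further split by batch could be made.

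**Figure D4:**
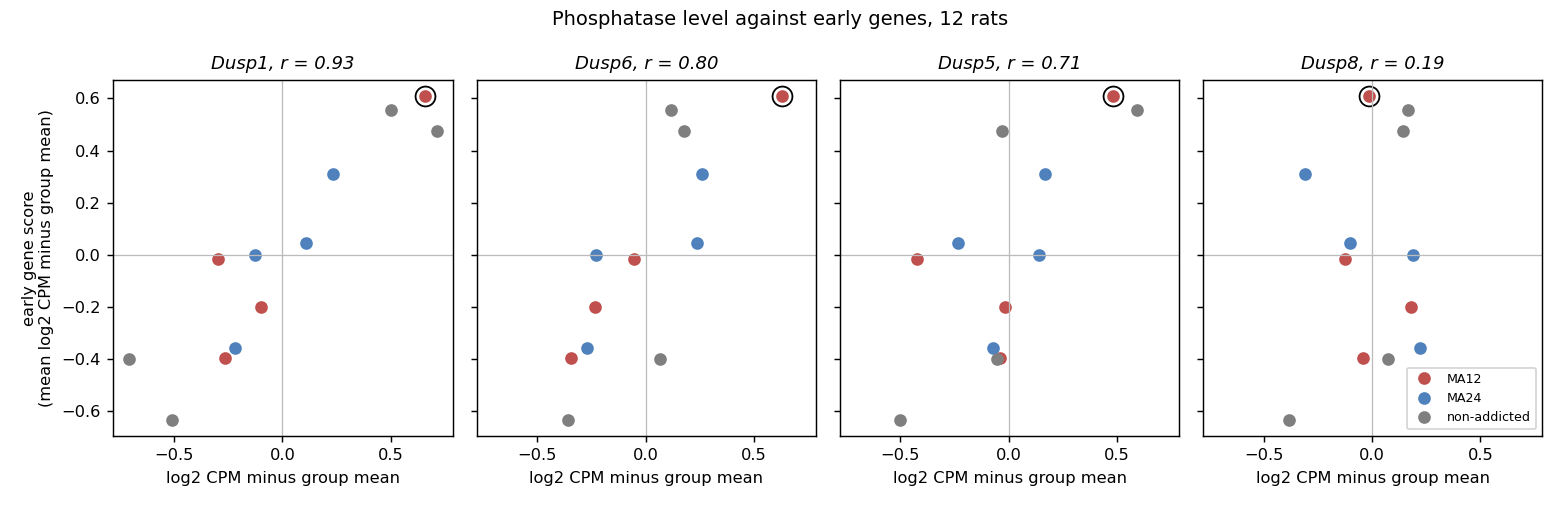
Early gene score of each rat (vertical axis, mean of 14 genes, log2 CPM minus group mean) against the level of *Dusp1*, *Dusp6*, *Dusp5* and *Dusp8* (horizontal axis, log2 CPM minus group mean), with 1 point per rat and MA12 rat 7N circled. *Dusp1* (r = 0.93) and *Dusp6* (r = 0.80) go up with the score across rats of the 3 groups, and *Dusp8* (r = 0.19) does not line up with it.

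Between the members themselves, no pair passed after adjustment. Of 45 pairs tested in the same way, 0 had an adjusted p below 0.05, 4 had an unadjusted p below 0.05 and 27 had a positive r, with a median of 0.0996. The smallest p belonged to *Dusp1* and *Dusp6* (r = 0.69, exact permutation p = 0.00832, adjusted p = 0.374), with r = 0.55 without MA12 rat 7N (exact permutation p = 0.0671).

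Over all 12 libraries, without subtraction of group means, the genes most like a member were looked up among 10755 other genes with a mean count of at least 50. For *Dusp1* these were *Arc* (r = 0.96), *Junb* (0.92) and *Fos* (0.91), and for *Dusp6* they were *Fos* (0.86), *Plk2* (0.83) and *Ltn1* (0.81). *Arc*, *Junb* and *Fos* are also in the score. For *Dusp8* they were *Ncs1* (0.97), *Cit* (0.95) and *Fasn* (0.95), and for *Dusp16* *Nucks1* (0.92), *Ube2z* (0.92) and *Sall2* (0.91). *Dusp5* was most like *Dysf* (0.87), *Fzd4* (0.87) and *Renbp* (0.84), and *Dusp4* most like *Lpcat3* (0.85), *S1pr2* (0.84) and *Slc8b1* (0.80). The leading gene for *Dusp2* was *Cdc42ep3* (0.86), for *Dusp7* RGD1562618 (0.86) and for *Dusp14* *Fam43a* (0.87). Each is the highest of 10755 values and is given as a description, with no test.

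Of the rest of the MAP kinase pathway, 1 transcript was called. The lists held 56 genes, namely other dual-specificity phosphatases, tyrosine phosphatases of MAP kinases, the MAP kinases, MAP kinase kinases with RAF, kinases downstream, and the Sprouty and SPRED inhibitors, of which 54 were in the table. In MA24 vs. MA12, 0 of 36 tested were higher and 1 was lower, *Spred1*, whose product holds back RAS and RAF. In the non-addicted comparisons, 0 of 39 (vs. MA12) and 0 of 36 (vs. MA24) were called. The 1 of 36 stands beside 2.45% of all genes. At an unadjusted p below 0.05 there were 12 of 36, 4 of 39 and 8 of 36 genes in the 3 comparisons, beside 23.6%, 12.3% and 17.5% of all genes tested. Among the 12, the JNK gene *Mapk10* had a log2FC of -0.34 (adjusted p = 0.0548) and the p38 gene *Mapk11* one of 0.42 (adjusted p = 0.051), both short of the threshold.

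*Spred1* stood at 52.9, 39.3, 40.1 and 43.9 CPM in MA12 rats 21, 31, 4N and 7N and at 30.7, 25.0, 28.9 and 32.7 CPM in MA24 rats 9N, 14N, 15N and 16N, with 23.7 to 42.0 CPM in the non-addicted rats. The MA12 and MA24 rats did not overlap, and the log2FC was -0.59 (SE 0.12, 95% interval -0.83 to -0.34, edgeR adjusted p = 0.011). This fold change lies at the limit of 1.5, and 8 of 17 alternatives did not call it, with log2FC from -0.64 to -0.48 over all 17. The adjusted p was 0.0832 among the rats numbered with an N alone and 0.102 with the N as a covariate. Of the 7 Sprouty and SPRED genes, 6 had a log2FC below 0 in this comparison, beside 51.7% of all genes tested.

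Glucocorticoid-induced genes, a class known to include *Dusp1*, were counted as well. Of 9 tested, 1 was called in non-addicted vs. MA12, *Zbtb16*, which was higher with a log2FC of 1.90 (SE 0.26, edgeR adjusted p = 0.00292) and was called under all 17 alternatives. Of all genes tested, 0.251% were called there. All 9 had a log2FC above 0 (median 0.36). Of them, 5 had an edgeR unadjusted p below 0.05, beside 12.3% of all genes. In MA24 vs. MA12, 0 of 9 were called beside 2.45% of all genes, and in non-addicted vs. MA24, 0 of 10 beside 0.456%. In these 2 comparisons 6 of 9 and 10 of 10 had a log2FC above 0. An edgeR unadjusted p below 0.05 was reached by 2 genes in each, beside 23.6% and 17.5% of all genes. *Dusp1* had in non-addicted vs. MA12 the value given above (log2FC -0.18).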

How the data were processed

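Total RNA was taken from the striatum of each rat by TRIzol, in a single batch per the methods, and poly-A libraries were made with a kit that does not mark strand. The authors removed adapters with Cutadapt 1.18, used STAR 2.7.0e for alignment of the paired reads to rn6, and deposited raw read counts per gene from featureCounts, without normalization. The submitters' processing notes also name HTSeq 0.12.4. Settings for strand and for reads with several positions are not given in the sources used here, so overlapping genes cannot be told apart.

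A gene was tested if its count averaged more than 4 in the 8 rats compared and its log2 CPM variance was not in the lowest 15%, which is how the methods' filters were read here. Groups were taken from the labels, each rat being a replicate. Pairs of groups were compared with TMM factors and edgeR 4.0.16 (glmQLFit and glmQLFTest, R 4.3.3), fitted without the third group, and p-values were adjusted by Benjamini-Hochberg over all genes tested. Intervals are 95% and come from the quasi-likelihood fit. Relations across rats were tested in Python 3.11.15 (numpy 2.4.6), and figures were drawn with matplotlib 3.10.9. Both procedures were tested on simulated data. Alternatives were DESeq2 1.42.0, the likelihood ratio test, RLE factors, other filters, a fit with the third group included, omission of each rat, rats with or without an N in their number, a prior count of 0.5 and, added after the data were seen, relations within groups split by the N.

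All members were named, with DEGs of the other lists and, for each member, the 3 genes most like it (the first only for *Dusp2*, *Dusp7* and *Dusp14*, and not reported here for *Dusp10*). The members and lists were chosen with earlier results of these data known. Promoter windows are from RefSeq (GRCr8), a build other than that of the counts.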

Additional observations from a re-analysis of the deposited data

Results flagged for a closer look

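In each of 30 groups of 4 rats (10 members in 3 groups), the gap between the outermost rat and its neighbour was compared with the range of the group on the log2 CPM scale. In 2 groups it exceeded Dixon's 95% critical value for 4 values, where chance gives about 1 group in 20. *Dusp7* in the MA12 rats had a ratio of 0.89, because rat 4N stood at 122 CPM and the other 3 rats at 108 to 110 CPM. *Dusp7* in the non-addicted rats had a ratio of 0.891, because rat 13 stood at 125 CPM and the others at 101 to 103 CPM. *Dusp7* was the least variable member, and the highest rat of these groups had at most 1.23 times the CPM of the lowest.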

How the results depend on the processing

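No MKP gene was called in any of the 3 comparisons under any alternative run (counts of 0 throughout). In non-addicted vs. MA24, 0 of all genes were called without the variance filter, with all 3 groups fitted or without non-addicted rat 12. The same held with at least 10 counts in every library, so 0 members was fixed in advance in these fits. Without MA12 rat 7N, the number of members related to the early gene score was 1 (*Dusp6*) in place of 2, and it was also 1 (*Dusp6*) within groups split by the N, an alternative chosen after seeing the data. Of the member log2FC under alternatives, 433 kept their direction and 40 changed sign, each of them for a member short of the threshold. With rats of one kind of number, *Dusp5* in MA24 vs. MA12 was -0.047 (N only) and -0.063 (N as a covariate). In non-addicted vs. MA12, the same settings (no N, covariate) gave 0.17 and 0.16 for *Dusp1*, 0.13 and 0.12 for *Dusp2*, and 0.10 and 0.091 for *Dusp8*. *Dusp8* there was also 0.0082 in DESeq2, 0.0082 with RLE factors and 0.0067 with all 3 groups fitted. Leaving out 1 rat at a time gave these ranges of log2FC. In MA24 vs. MA12 they were -0.36 to 0.014 (*Dusp1*), -0.19 to 0.15 (*Dusp2*) and -0.13 to 0.038 (*Dusp8*). In non-addicted vs. MA12 they were -0.43 to 0.11 (*Dusp1*), -0.18 to 0.13 (*Dusp2*), -0.085 to 0.35 (*Dusp5*), -0.38 to 0.015 (*Dusp6*), -0.050 to 0.12 (*Dusp8*) and -0.027 to 0.16 (*Dusp14*). In non-addicted vs. MA24 they were -0.18 to 0.29 (*Dusp1*), -0.21 to 0.11 (*Dusp2*), -0.25 to 0.13 (*Dusp5*), -0.070 to 0.0028 (*Dusp7*) and -0.044 to 0.16 (*Dusp8*). The cause was not tested. *Dusp10* stayed below 0 in non-addicted vs. MA12 under all 17 alternatives (-0.75 to -0.57, adjusted p from 0.109 to 0.497 over the edgeR and DESeq2 fits), and *Dusp4* did so too (-1.001 to -0.54, adjusted p from 0.169 to 0.491). The number of DEGs among all genes moved far more, from 47 to 436 in MA24 vs. MA12, 4 to 93 in non-addicted vs. MA12 and 0 to 187 in non-addicted vs. MA24. No paired analysis was possible because the groups share no rat numbers. For *Dusp4*, *Dusp10* and *Dusp16*, whose 95% intervals reached beyond 1.5-fold in each comparison, counting error alone would give an SD of 0.15, 0.137 and 0.132 log2 CPM, below the SD between rats of 0.37, 0.36 and 0.48.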
